A study of Mus musculus with 16 samples.

Results

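The genes described here are 46 mouse genes that drive the cell division cycle and copy the DNA, taken as a named list of symbols and not by their values, out of 31663 gene symbols in the table. All 46 symbols were found, each on 1 row. They fall into 15 regulators of G1, 12 genes of DNA replication and nucleotide supply, and 19 genes of G2 and mitosis. RNA was measured in 16 libraries, 2 in each of 8 groups. Cells were of trophectoderm stem cell origin (TSC, also written TSCC in the labels, RFP+) or of induced pluripotent stem cell origin (iPSC, GFP+). Each kind was taken as its part of an assembled structure of both (ITS-TSC and ITS-iPSC) or from colonies cultured alone (TSC alone and iPSC alone). Each of these 4 was kept with BMP4, a signal of the TGF-beta family, or without it. All 8 groups grew in a serum-containing medium with 5% Matrigel, 12.5 ng/ml of the growth factor FGF4 and 500 ng/ml of its cofactor heparin. BMP4 was present for the last 24 hours, its dose being unstated in the labels, and collection was on day 3. Every library came from a single colony or a single part of a structure that was picked, and parted from its neighbour, by hand under a fluorescence microscope. Libraries were made by the Smart-seq2 protocol for small amounts of RNA. Levels are FPKM as deposited, read fragments scaled to transcript length and to mapped fragments, and the depth behind them is unknown. Nothing in the labels states that replicates were separate cultures, and p-values therefore measure the spread between these libraries alone.

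In textbook accounts, D-type cyclins with Cdk4 and Cdk6, and then E-type cyclins with Cdk2, phosphorylate the retinoblastoma proteins and so release E2F factors, which switch on the genes of S phase. Cdc6 helps to load the Mcm2 to Mcm7 helicase onto DNA before replication, Cdc45 activates it, Pcna holds the polymerases on their template, and Rrm1, Rrm2 and Tyms make nucleotides. Later, Foxm1 and Mybl2 switch on the genes of G2 and mitosis, such as B-type cyclins, the Aurora and Polo kinases and the spindle checkpoint genes Bub1, Bub1b and Mad2l1. Pluripotent cells of the mouse cycle fast, with a short G1, and trophoblast giant cells leave the mitotic cycle and copy their DNA without dividing, a switch in which the CDK inhibitor Cdkn1c takes part.

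Defining markers were set against the labels. The pluripotency gene Pou5f1 had 0.0335 to 13.2 FPKM in the 8 libraries of TSC origin and 49.5 to 326 in the 8 of iPSC origin. Sox2, another pluripotency factor, did not mark iPSC, with 0 to 11.1 FPKM in TSC origin and 0.281 to 3.34 in iPSC origin. The trophoblast factor Gata3 had 8.55 to 47.0 FPKM in TSC origin and 0.163 to 12.5 in iPSC origin. The trophoblast stem cell factor Eomes was near 0 in TSC alone, at 0.219 and 0.0844 FPKM, and Cdx2, another, was at 0 and 3.89 FPKM there, where the 16 libraries ran from 0 to 6.24. The 2 libraries of TSC alone also had the highest summed level of 10 markers of differentiated trophoblast, 4766 to 6823 FPKM, against 161 to 1787 in the other 6 of TSC origin. Only 3 of the 10 markers reached 1 FPKM in TSC alone, and 5 to 7 were at 0, so the sum does not describe the list as a whole. A pair of libraries held genes of the other lineage. Replicate 2 of ITS-TSC had 13.2 FPKM of Pou5f1, and the second replicate of ITS-iPSC with BMP4 had 50.4 FPKM of the trophoblast factor Elf5. Fibroblast markers summed to at most 4.31 FPKM and endoderm markers to at most 10.8 in any library. FPKM totals ran from 666077 to 947859, and the replicates of a group correlated across genes with a Pearson's r of 0.929 to 0.973.

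Of the 46 genes, 44 passed the filter of at least 1 FPKM in at least 2 libraries and entered the fit of 13406 genes. Cdkn2c, an inhibitor of Cdk4 and Cdk6, and E2f2, an E2F factor, did not. Cdkn2c had 0 to 0.762 FPKM with a median of 0.0484, and E2f2 had 0 to 0.836 FPKM with a median of 0.122. No test was made for this pair. Median levels within a library were taken for each phase on the log2(FPKM + 1) scale, over 12 replication genes, 19 genes of G2 and mitosis and the 13 tested G1 regulators. In ITS-TSC the median level was 5.68 to 5.73 for replication and 6.48 to 6.62 for G2 and mitosis. TSC alone had median levels of 6.19 to 6.42 for replication, 5.65 to 6.31 for G2 and mitosis and 2.14 to 2.46 for G1. In ITS-iPSC the median level was 5.48 to 5.61 for replication and 6.08 to 6.09 for G2 and mitosis. In iPSC alone it was 6.59 to 6.76 for replication, 6.33 to 6.41 for G2 and mitosis and 3.07 to 3.20 for G1. Without BMP4, replication thus lay below G2 and mitosis in both libraries of ITS-TSC and of ITS-iPSC. It lay above it in both libraries of TSC alone and of iPSC alone. With BMP4 the order was the same in ITS-TSC, ITS-iPSC and iPSC alone, but TSC alone was split. Its replicate 1 had 5.755 for replication and 6.342 for G2 and mitosis, and its replicate 2 had 6.724 and 6.328. The G1 regulators, which include the genes near 0, were the lowest phase in every library of all 8 groups.

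**Figure D1:**
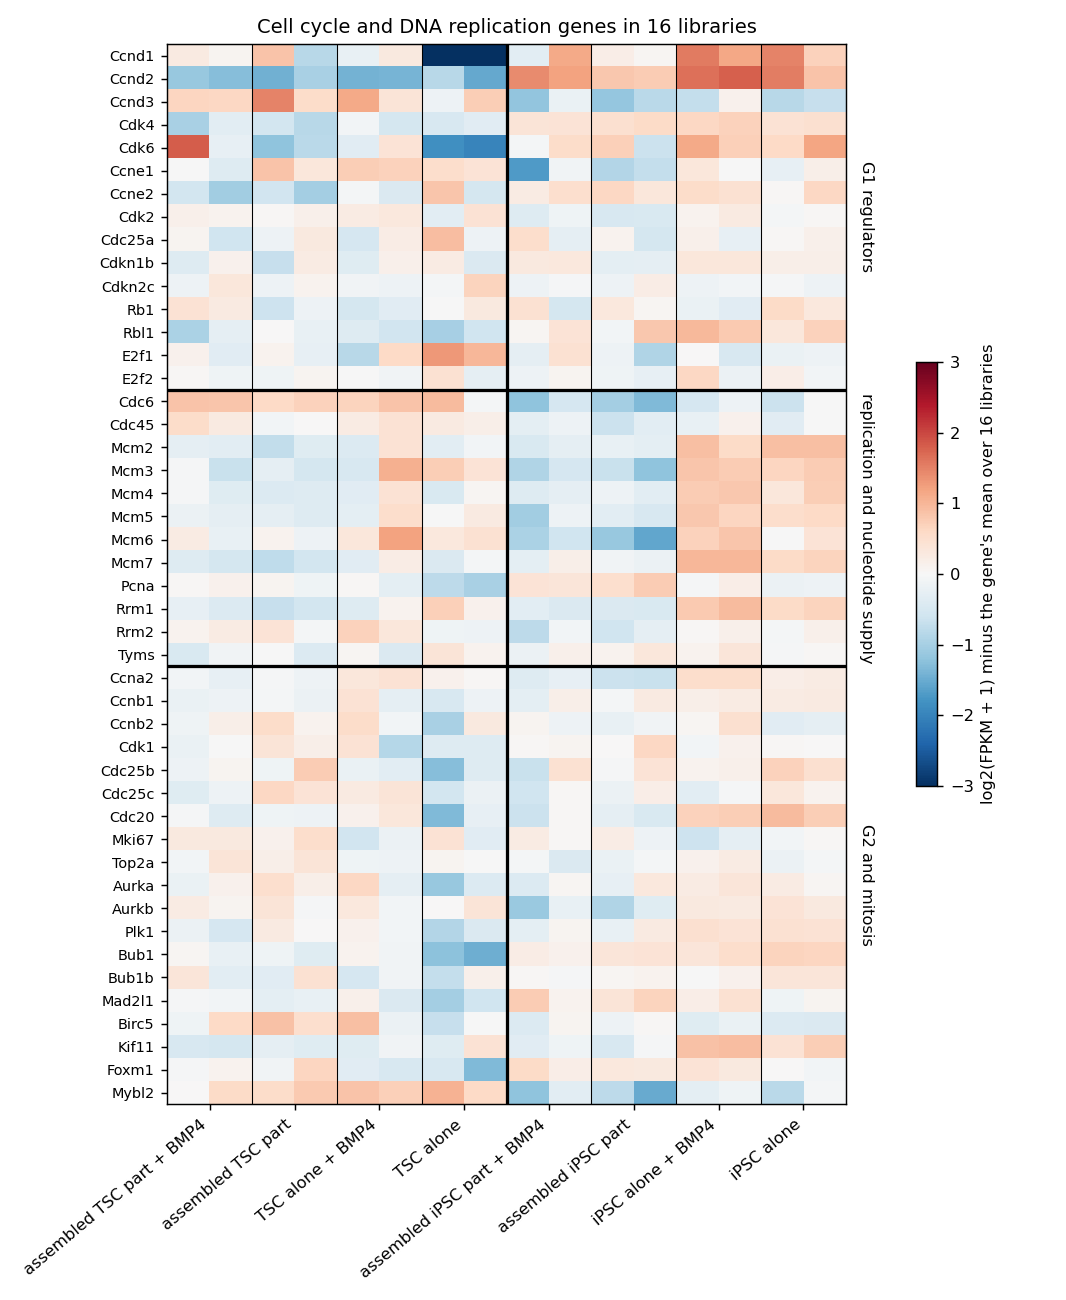
Each cell is the log2(FPKM + 1) of a gene (rows, by phase) in 1 library (columns, 2 per group) minus that gene's mean over the 16 libraries, on a colour scale that stops at -3 and 3. Ccnd1 is off the low end of the scale in TSC alone, Ccnd2 and Cdk4 are low in all 8 libraries of TSC origin, and the Mcm genes are high in the 4 libraries of iPSC cultured alone.

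The question of each comparison was whether the genes of the cycle moved with cell origin, with assembly or with BMP4. Changes are differences of log2(FPKM + 1), with their SE, from a limma fit of all 16 libraries, and a call is a Benjamini-Hochberg adjusted p under 0.05 over all 13406 genes. In TSC alone against iPSC alone, 2 of the 44 genes were higher and 15 lower, 38.6% of the list, against 36.4% of all tested genes, 16.2% higher and 20.2% lower. Without replicate 1 of iPSC alone the count of 17 fell to 10, without its replicate 2 to 8, and without replicate 1 of TSC alone to 10. ITS-TSC against ITS-iPSC gave 6 higher and 4 lower, 22.7% of the list, against 16.9% of all tested genes, 11.1% higher and 5.89% lower. Here the split depended on scaling, with 4 higher and 6 lower after quantile normalization, 4 and 7 after upper quartile rescaling and 4 and 4 after the length and GC correction. Leaving out replicate 1 or 2 of ITS-iPSC gave 5 and 4 calls in place of 10, and leaving out replicate 1 or 2 of ITS-TSC gave 4 and 6. With BMP4 on both sides, TSC alone against iPSC alone gave 1 higher and 6 lower, 15.9% of the list, against 18.2% of all tested genes, 7.62% higher and 10.6% lower. The split was 2 higher and 6 lower after quantile normalization, and 0 and 6 after rescaling without predicted gene names. That count of 7 was 1 without either library of iPSC alone with BMP4 and 3 without replicate 1 of TSC alone with BMP4. The assembled parts with BMP4 gave 1 higher and 2 lower, 6.82% of the list, against 10.1% of all tested genes, 5.32% higher and 4.82% lower. The split was 2 and 2 after quantile normalization or after rescaling without predicted gene names. Without the second replicate of ITS-iPSC with BMP4, which holds trophoblast genes, 8 genes were called. Only 1 was called without replicate 1 of that group or replicate 1 of ITS-TSC with BMP4.

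Assembly was tested within each origin. In ITS-iPSC against iPSC alone, 1 gene was higher and 6 lower, 15.9% of the list, against 11.8% of all tested genes, 2.08% higher and 9.74% lower. The median change was -0.36 over the 44 genes and -0.19 over all tested genes. The split was 0 and 4 after quantile normalization and 1 and 2 after upper quartile rescaling. The count of 7 fell to 1 and 0 without replicate 1 or 2 of iPSC alone, and to 4 and 0 without replicate 1 or 2 of ITS-iPSC. Where both groups had BMP4, 0 were higher and 9 lower, 20.5% of the list, against 5.72% of all tested genes, 0.88% higher and 4.84% lower. The median change was -0.43 over the 44 genes and -0.18 over all tested genes. That count was 0 after quantile normalization, 1 after upper quartile rescaling, and 0 without either library of iPSC alone with BMP4 or without replicate 1 of the assembled part. In that comparison 13 of the 44 genes had an unadjusted limma p under 0.05, in either direction. In ITS-TSC against TSC alone, 7 were higher and 1 lower, 18.2% of the list, against 19.2% of all tested genes, 9.01% higher and 10.2% lower. The split was 5 and 3 after rescaling without predicted gene names. Without replicate 1 of TSC alone 4 were called, without replicate 1 of ITS-TSC 3, and without its replicate 2, which holds pluripotency genes, 4. Between the groups with BMP4, 0 of the 44 were called between ITS-TSC and TSC alone, against 0.298% of all tested genes, and 6 had an unadjusted limma p under 0.05. The effect of assembly in TSC minus that in iPSC, averaged over cultures with and without BMP4, was above 0 for 2 called genes, Ccnd1 and Cdc20. That is 4.55% of the list, against 4.15% of all tested genes, 2.94% higher and 1.22% lower, and leaving out 1 library at a time gave 0 to 5 calls.

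BMP4 gave few calls. In TSC alone, 3 of the 44 genes were higher with BMP4 and 0 lower, 6.82% of the list, against 12.1% of all tested genes, 6.39% higher and 5.74% lower, and 12 had an unadjusted limma p under 0.05 in either direction. The count was 5 without replicate 2 of TSC alone and 7 without replicate 2 of TSC alone with BMP4. In iPSC alone, 0 were called, against 0.0597% of all tested genes, and 1 had an unadjusted limma p under 0.05. ITS-iPSC also gave 0, against 0.00746% of all genes, with 0 at an unadjusted limma p under 0.05. In ITS-TSC there were 0, against 0.5%, with 3 at an unadjusted limma p under 0.05, and 1 call without replicate 2 of the part with BMP4. The mean of the 4 BMP4 effects gave 0, against 1.4%, with 6 at an unadjusted limma p under 0.05. There was 1 call on leaving out replicate 1 of ITS-TSC, replicate 1 of ITS-iPSC with BMP4 or replicate 2 of ITS-TSC with BMP4. The BMP4 effect in ITS-TSC minus that in TSC alone passed for 0 genes, against 1.75%, with 10 at an unadjusted limma p under 0.05 and 1 call without replicate 2 of TSC alone or of ITS-TSC. The same difference in iPSC passed for 0, against 0.0224%, with 0 at an unadjusted limma p under 0.05.

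**Figure D2:**
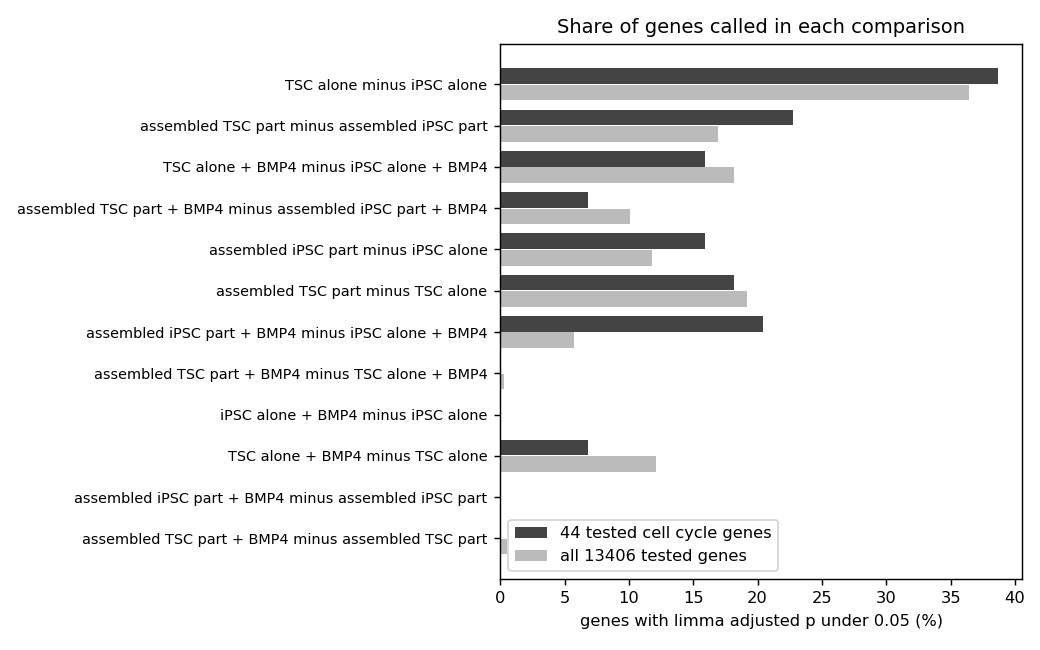
Bars give the percent of genes with a limma adjusted p under 0.05 in each of 12 comparisons, for the 44 tested cell cycle genes (dark) and for all 13406 tested genes (light), on an axis that starts at 0. The gap between the bars is widest for ITS-iPSC with BMP4 against iPSC alone with BMP4, at 20.5% against 5.72%.

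Among the G1 cyclins, Ccnd2 separated the origins. Its levels were 0.309 and 0.192 FPKM in ITS-TSC with BMP4, 0.0544 and 0.469 in ITS-TSC, 0.080 and 0.0946 in TSC alone with BMP4 and 0.609 and 0 in TSC alone. In the libraries of iPSC origin they were 6.71 and 5.61 FPKM in ITS-iPSC with BMP4, 4.05 and 3.91 in ITS-iPSC, 8.13 and 9.05 in iPSC alone with BMP4 and 7.38 and 4.18 in iPSC alone. All 8 libraries of TSC origin were under 1 FPKM and below all 8 of iPSC origin. The change was -2.38 ± 0.32, limma adjusted p = 0.000144, for TSC alone against iPSC alone and -2.00 ± 0.32, limma adjusted p = 0.00158, for ITS-TSC against ITS-iPSC. With BMP4 on both sides it was -3.14 ± 0.32, limma adjusted p = 9.52e-05, in cells cultured alone and -2.52 ± 0.32, limma adjusted p = 0.000568, in assembled cells. Only the last of these calls was lost, in the fit of only the 4 libraries compared (adjusted p = 0.0785). Cdk4, the kinase partner of D-type cyclins and the gene of the list with the highest median FPKM, was lower too. Its levels were 350.4 and 546 FPKM in ITS-TSC with BMP4, 470.3 and 386 in ITS-TSC, 641 and 477 in TSC alone with BMP4 and 487 and 544 in TSC alone. In iPSC origin they were 902 and 911 FPKM in ITS-iPSC with BMP4, 949 and 1019 in ITS-iPSC, 1048 and 1106 in iPSC alone with BMP4 and 929 and 956 in iPSC alone. The 8 libraries of TSC origin all lay below the 8 of iPSC origin. The change was -0.87 ± 0.23, limma adjusted p = 0.00967, for TSC alone against iPSC alone and -1.21 ± 0.23, limma adjusted p = 0.00375, for ITS-TSC against ITS-iPSC. The last of these held under every setting, and the first was lost without replicate 2 of iPSC alone or replicate 1 of TSC alone (adjusted p 0.0501 to 0.0592). Where both groups had BMP4 it was -0.96 ± 0.23, limma adjusted p = 0.0123, in cells cultured alone, a call lost without either replicate of iPSC alone with BMP4 or replicate 2 of TSC alone with BMP4 (adjusted p 0.0665 to 0.0783) and in the fit of only the 4 libraries compared (adjusted p = 0.100). In assembled cells with BMP4 it was -1.05 ± 0.23, limma adjusted p = 0.0127, a call lost without replicate 1 of ITS-iPSC with BMP4 or replicate 1 of ITS-TSC with BMP4 (adjusted p 0.0680 to 0.117) and in the fit of only the 4 libraries compared (adjusted p = 0.187).

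Ccnd1, the D-type cyclin that growth factor signals induce, was near 0 in a single group. It had 16 and 13.9 FPKM in ITS-TSC with BMP4, 24.4 and 6.91 in ITS-TSC, 11.1 and 16.2 in TSC alone with BMP4 and 0.356 and 0.682 in TSC alone. The iPSC origin libraries had 10.2 and 30 FPKM in ITS-iPSC with BMP4, 15.3 and 13.7 in ITS-iPSC, 40.8 and 30.7 in iPSC alone with BMP4 and 38.7 and 21.7 in iPSC alone. TSC alone therefore stood apart from the other 14 libraries, of which the lowest was at 6.91 FPKM. The change was -4.31 ± 0.53 in TSC alone against iPSC alone (limma adjusted p = 8.39e-05). It was 3.23 ± 0.53 in ITS-TSC against TSC alone (limma adjusted p = 0.00186) and 3.25 ± 0.53 in TSC alone with BMP4 against TSC alone (limma adjusted p = 0.00257). These 3 comparisons share the libraries of TSC alone and are not independent. The ITS-TSC call was lost in the fit of only the 4 libraries compared (adjusted p = 0.0971), and the BMP4 call in the fit of only the 4 libraries compared (adjusted p = 0.158). The effect of assembly in TSC minus that in iPSC was 2.65 ± 0.53, limma adjusted p = 0.0212. This call was lost without replicate 1 of iPSC alone, replicate 2 of ITS-iPSC, replicate 1 of iPSC alone with BMP4 or replicate 1 of ITS-TSC with BMP4 (adjusted p 0.0507 to 0.0637). In both libraries of TSC alone the summed markers of differentiated trophoblast were also at their highest, 4766 to 6823 FPKM, with 3 of 10 markers at 1 FPKM or more. Their part in the Ccnd1 level was not tested. In colonies of many cells, fewer cells of a type and less RNA per cell cannot be told apart.

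Cdk6, the other kinase of D-type cyclins, was like Ccnd1 lowest in TSC alone, but it stayed low in ITS-TSC as well. It had 13.2 and 2.42 FPKM in ITS-TSC with BMP4, 0.763 and 1.33 in ITS-TSC, 2.21 and 4.41 in TSC alone with BMP4 and 0.134 and 0.0317 in TSC alone. In iPSC origin it stood at 2.91 and 4.96 FPKM in ITS-iPSC with BMP4, 5.66 and 1.59 in ITS-iPSC, 7.89 and 5.71 in iPSC alone with BMP4 and 5.19 and 8.17 in iPSC alone. Both libraries of TSC alone were close to 0 and below the other 14, and replicate 1 of ITS-TSC with BMP4 was the highest of all. The call was in TSC alone against iPSC alone, at -2.80 ± 0.59, limma adjusted p = 0.00291. Ccnd3, the remaining D-type cyclin, had its higher group means in TSC origin. It had 177 and 174 FPKM in ITS-TSC with BMP4, 317 and 165 in ITS-TSC, 249 and 148 in TSC alone with BMP4 and 99.9 and 187 in TSC alone. In iPSC origin it had 48.7 and 97.0 FPKM in ITS-iPSC with BMP4, 49.5 and 63.5 in ITS-iPSC, 68.0 and 122 in iPSC alone with BMP4 and 62.6 and 69.5 in iPSC alone. Each TSC origin group had a higher mean than its iPSC counterpart, while the libraries overlapped across origins. Its only call was in ITS-TSC against ITS-iPSC, at 2.01 ± 0.43, limma adjusted p = 0.00720, and was lost without replicate 1 of ITS-iPSC or replicate 1 of ITS-TSC (adjusted p 0.0593 to 0.0886).

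Of the E-type cyclins, which act with Cdk2 at the start of S phase, Ccne1 stood at 120.4 and 91.7 FPKM in ITS-TSC with BMP4, 219.6 and 153 in ITS-TSC, 201 and 195 in TSC alone with BMP4 and 175 and 160.5 in TSC alone. The iPSC origin libraries had 36.2 and 111 FPKM in ITS-iPSC with BMP4, 64.8 and 72.9 in ITS-iPSC, 154 and 119 in iPSC alone with BMP4 and 102 and 137 in iPSC alone. The lowest 3 libraries were all of ITS-iPSC, 2 without BMP4 and 1 with it. The change in ITS-TSC against ITS-iPSC was 1.40 ± 0.39, limma adjusted p = 0.0286, a call lost without any 1 of the 4 libraries (adjusted p 0.0505 to 0.191) and under 4 other settings (adjusted p 0.0527 to 0.0724). Its relative Ccne2 stood at 8.17 and 5.51 FPKM in ITS-TSC with BMP4, 7.99 and 5.64 in ITS-TSC, 11.8 and 8.90 in TSC alone with BMP4 and 22.7 and 8.22 in TSC alone. Libraries of iPSC origin had 14.8 and 18.1 FPKM in ITS-iPSC with BMP4, 19.6 and 16 in ITS-iPSC, 18.8 and 17.5 in iPSC alone with BMP4 and 12.6 and 19.5 in iPSC alone. ITS-TSC against ITS-iPSC gave -1.27 ± 0.39, limma adjusted p = 0.0422, a call lost without any 1 of the 4 libraries (adjusted p 0.0921 to 0.203) and under 4 other settings (adjusted p 0.0666 to 0.210). The E-type cyclins thus moved in opposite directions in that comparison. Rbl1, a retinoblastoma family protein, had 1.51 and 3.00 FPKM in ITS-TSC with BMP4, 3.88 and 3.10 in ITS-TSC, 2.70 and 2.25 in TSC alone with BMP4 and 1.42 and 2.21 in TSC alone. Its levels in iPSC origin were 4.0 and 5.39 FPKM in ITS-iPSC with BMP4, 3.52 and 7.41 in ITS-iPSC, 8.40 and 7.34 in iPSC alone with BMP4 and 5.11 and 6.81 in iPSC alone. TSC alone was lower than iPSC alone (-1.31 ± 0.35, limma adjusted p = 0.0106), a call lost without replicate 2 of iPSC alone or replicate 1 of TSC alone (adjusted p 0.0635 to 0.0867) and in the fit of only the 4 libraries compared (adjusted p = 0.0548). Between the groups with BMP4 the change was -1.35 ± 0.35, limma adjusted p = 0.0182, lost without any 1 of the 4 libraries (adjusted p 0.0540 to 0.115) and in the fit of only the 4 libraries compared (adjusted p = 0.0571). E2f1, the E2F activator, stood at 1.45 and 0.763 FPKM in ITS-TSC with BMP4, 1.39 and 0.875 in ITS-TSC, 0.241 and 2.36 in TSC alone with BMP4 and 4.48 and 3.40 in TSC alone. Cells of iPSC origin had 0.857 and 2.03 FPKM in ITS-iPSC with BMP4, 1.01 and 0.198 in ITS-iPSC, 1.23 and 0.583 in iPSC alone with BMP4 and 0.924 and 0.991 in iPSC alone. TSC alone held the 2 highest libraries of the 16, with a change of 1.33 ± 0.44, limma adjusted p = 0.0332 against iPSC alone, which was lost without any 1 of the 4 libraries (adjusted p 0.0630 to 0.130) and under 2 other settings (adjusted p 0.0728 to 0.107).

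**Figure D3:**
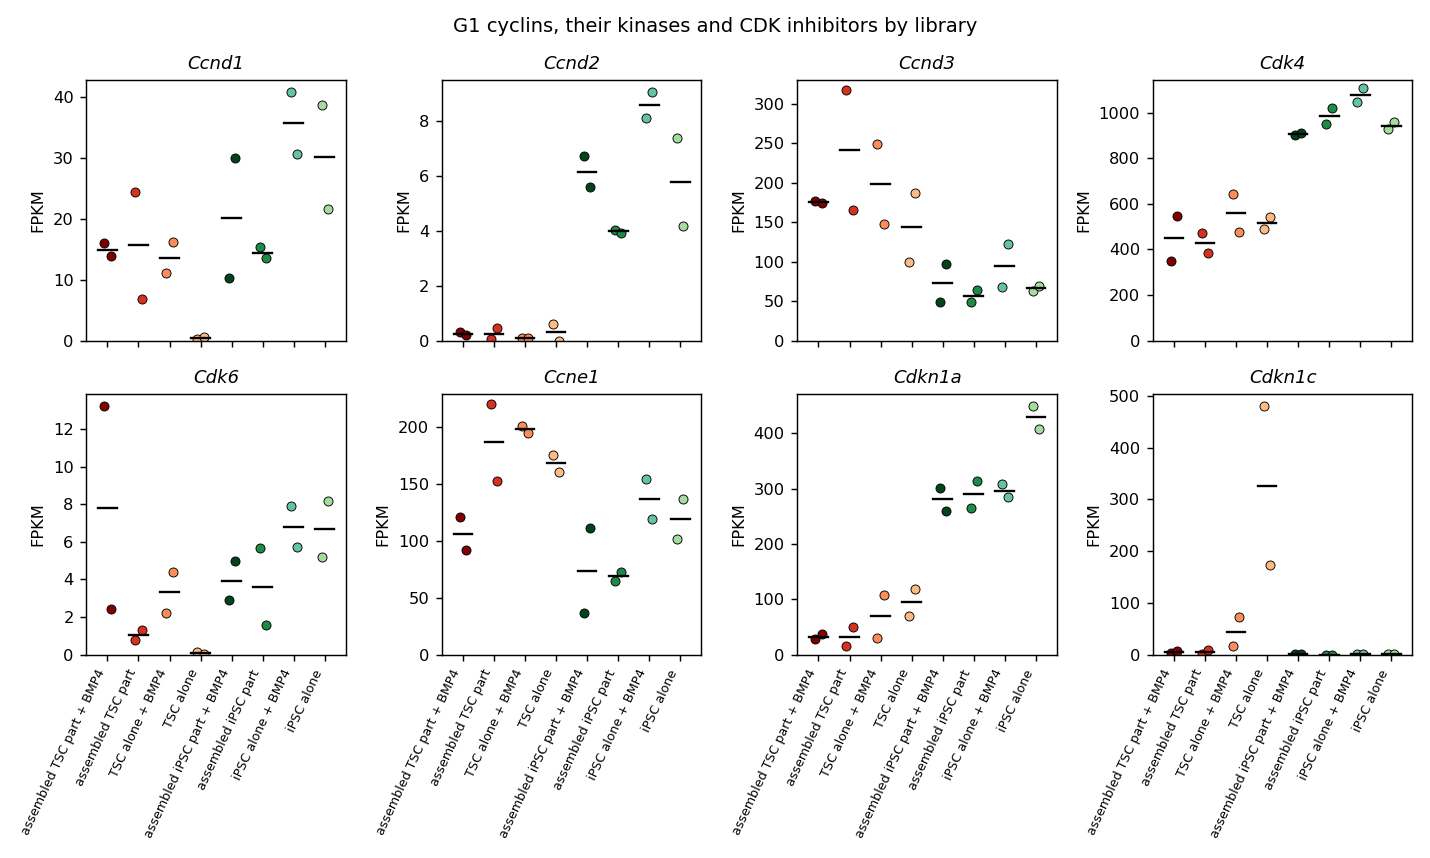
Points are the FPKM of single libraries and bars the mean of the 2 libraries of a group, on linear axes that start at 0, for 6 G1 genes of the list and for the CDK inhibitors Cdkn1a and Cdkn1c, which are not in it. Ccnd2, Cdk4, Cdkn1a and Cdkn1c separate the 4 groups of TSC origin (left) from the 4 of iPSC origin (right). In TSC alone Ccnd1 is near 0 and Cdkn1c is highest.

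The other G1 regulators gave no call. Cdk2, the kinase of E-type cyclins, ranged over 22.3 to 43.0 FPKM with a median of 32.9. Cdc25a, a phosphatase that activates it, ranged over 3.36 to 11.5 FPKM with a median of 5.84. Cdkn1b, an inhibitor of cyclin-CDK complexes that rises in resting cells, was low everywhere, with 0.922 and 1.74 FPKM in ITS-TSC with BMP4, 0.547 and 1.96 in ITS-TSC, 0.962 and 1.81 in TSC alone with BMP4 and 1.99 and 0.874 in TSC alone. For iPSC origin the values were 2.07 and 2.14 FPKM in ITS-iPSC with BMP4, 1.03 and 1.08 in ITS-iPSC, 2.19 and 2.17 in iPSC alone with BMP4 and 1.86 and 1.85 in iPSC alone. Rb1 itself, the retinoblastoma gene, was as low, with 0.235 to 1.82 FPKM with a median of 0.919. Among these 4 genes the lowest unadjusted limma p in TSC alone against iPSC alone was 0.355.

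A pair of CDK inhibitors outside the list, Cdkn1c and Cdkn1a, passed the test in several comparisons, while Cdkn1b of the list passed in none. Cdkn1c, an imprinted inhibitor needed by trophoblast giant cells, stood at 2.90 and 8.08 FPKM in ITS-TSC with BMP4, 2.26 and 9.13 in ITS-TSC, 16.1 and 72.4 in TSC alone with BMP4 and 479.8 and 173 in TSC alone. The iPSC origin libraries had 1.04 and 0.717 FPKM in ITS-iPSC with BMP4, 0.284 and 0.265 in ITS-iPSC, 0.843 and 0.706 in iPSC alone with BMP4 and 1.55 and 0.959 in iPSC alone. TSC alone was the highest group, TSC alone with BMP4 came next, and the other 12 libraries were under 16.1 FPKM. All 8 libraries of TSC origin were above all 8 of iPSC origin, as were 4.17% of all tested genes. The change was 7.01 ± 0.69 in TSC alone against iPSC alone (limma adjusted p = 2.10e-05). With BMP4 on both sides of that pair, Cdkn1c changed by 4.32 ± 0.69 (limma adjusted p = 0.00129). ITS-TSC against ITS-iPSC gave 2.17 ± 0.69 (limma adjusted p = 0.0477). The assembled parts with BMP4 gave 1.67 ± 0.69 (limma adjusted p = 0.152), which is no call. The change of Cdkn1c was -5.65 ± 0.69 in ITS-TSC against TSC alone (limma adjusted p = 0.000348), a call lost in the fit of only the 4 libraries compared (adjusted p = 0.0772). TSC alone with BMP4 against TSC alone, which shares those libraries, gave -3.03 ± 0.69, limma adjusted p = 0.0150, lost without replicate 1 of TSC alone or replicate 1 of TSC alone with BMP4 (adjusted p 0.0944 to 0.141) and under 2 other settings (adjusted p 0.0634 to 0.266). The effect of assembly in TSC minus that in iPSC was -3.75 ± 0.69, limma adjusted p = 0.0157, lost without replicate 2 of iPSC alone (adjusted p = 0.0538). The group where Cdkn1c was highest was thus the group where Ccnd1 was near 0. Cdkn1a, an inhibitor that p53 induces, stood at 28.6 and 36.8 FPKM in ITS-TSC with BMP4, 15.0 and 50.1 in ITS-TSC, 30.8 and 108 in TSC alone with BMP4 and 70.5 and 118 in TSC alone. The cells of iPSC origin had 301 and 259 FPKM in ITS-iPSC with BMP4, 264 and 314 in ITS-iPSC, 308 and 285 in iPSC alone with BMP4 and 449 and 408 in iPSC alone. All 8 TSC origin libraries were below all 8 of iPSC origin. The change was -2.22 ± 0.54, limma adjusted p = 0.00651, for TSC alone against iPSC alone, lost without replicate 1 of TSC alone (adjusted p = 0.0522). For ITS-TSC against ITS-iPSC it was -3.34 ± 0.54, limma adjusted p = 0.00174, under every setting. With BMP4 on both sides it was -2.34 ± 0.54, limma adjusted p = 0.0108, in cells cultured alone, lost without either replicate of iPSC alone with BMP4 or replicate 1 of TSC alone with BMP4 (adjusted p 0.0522 to 0.0975) and in the fit of only the 4 libraries compared (adjusted p = 0.0853), and -3.07 ± 0.54, limma adjusted p = 0.00397, in assembled cells, lost in the fit of only the 4 libraries compared (adjusted p = 0.0573). ITS-TSC against TSC alone gave -1.69 ± 0.54, limma adjusted p = 0.0439, lost without either replicate of TSC alone or replicate 1 of ITS-TSC (adjusted p 0.0561 to 0.362) and under 3 other settings (adjusted p 0.0806 to 0.213). Cdkn2b, an INK4 inhibitor of Cdk4 and Cdk6, had 8.88 and 34.5 FPKM in TSC alone and 7.67 and 3.53 in iPSC alone, a change of 1.58 ± 0.55, limma adjusted p = 0.0384, lost without replicate 2 of iPSC alone or replicate 2 of TSC alone (adjusted p 0.253 to 0.363) and under 3 other settings (adjusted p 0.0558 to 0.201). Of the 5 tested inhibitors outside the list, 2 were higher (Cdkn1c and Cdkn2b) and 1 lower (Cdkn1a) in TSC alone against iPSC alone, 60% against 36.4% of all tested genes, with a median of 0.11 against -0.11 over all tested genes.

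Among the helicase genes Mcm2 to Mcm7, ITS-iPSC was lower than iPSC alone by the limma test for 6 of 6 with BMP4 on both sides. Of all tested genes, 4.84% were called lower there. Without BMP4 it was lower for 3 of 6, against 9.74% of all tested genes. No library of ITS-iPSC overlapped with those of iPSC alone for these genes, and 22.5% of all tested genes were lower with no overlap too. Mcm6 had 43.0 and 55.1 FPKM in ITS-iPSC with BMP4, 37.4 and 27.9 in ITS-iPSC, 135 and 149 in iPSC alone with BMP4 and 82.8 and 112 in iPSC alone. Mcm3 had 31.8 and 42.3 FPKM in ITS-iPSC with BMP4, 37.5 and 25.5 in ITS-iPSC, 107 and 102 in iPSC alone with BMP4 and 94.3 and 103 in iPSC alone. Mcm2 had 37.0 and 42.5 FPKM in ITS-iPSC with BMP4, 43.6 and 41.7 in ITS-iPSC, 96.0 and 76.2 in iPSC alone with BMP4 and 96.4 and 96.4 in iPSC alone. In each of these 3, every assembled library lay below every lone one. Mcm4 had 43.7 and 47.4 FPKM in ITS-iPSC with BMP4, 52.3 and 45.9 in ITS-iPSC, 98.0 and 103 in iPSC alone with BMP4 and 73.8 and 97.5 in iPSC alone. Mcm5 had 35.9 and 68.1 FPKM in ITS-iPSC with BMP4, 60.1 and 53.8 in ITS-iPSC, 133 and 119 in iPSC alone with BMP4 and 109 and 114 in iPSC alone. Mcm7 had 76.1 and 106 FPKM in ITS-iPSC with BMP4, 86.5 and 83.6 in ITS-iPSC, 189 and 189.5 in iPSC alone with BMP4 and 140.5 and 151 in iPSC alone. The assembled libraries of these genes also lay below the lone ones without exception. Rrm1, the large subunit of ribonucleotide reductase, did the same, with 27.5 and 25.4 FPKM in ITS-iPSC with BMP4, 25.3 and 25.0 in ITS-iPSC, 60.4 and 67.6 in iPSC alone with BMP4 and 52.2 and 55.7 in iPSC alone.

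Without BMP4, ITS-iPSC was lower than iPSC alone by the limma test for Mcm3 (-1.64 ± 0.40, limma adjusted p = 0.0222), Mcm6 (-1.55 ± 0.30, limma adjusted p = 0.00867), Mcm2 (-1.16 ± 0.26, limma adjusted p = 0.0163) and Rrm1 (-1.07 ± 0.24, limma adjusted p = 0.0153). Where both groups had BMP4 it was lower for all 6 Mcm genes and for Rrm1. The changes were -1.52 ± 0.30 for Mcm6, -1.49 ± 0.40 for Mcm3, -1.33 ± 0.30 for Mcm5 and -1.12 ± 0.27 for Mcm4. They were -1.09 ± 0.26 for Mcm2, -1.07 ± 0.24 for Mcm7 and -1.24 ± 0.24 for Rrm1. The limma adjusted p of these 7 genes lay between 0.0197 and 0.0493. The median of the 6 Mcm genes was -1.23 with BMP4 and -1.06 without it, while the median of all tested genes was itself below 0, at -0.18 with BMP4 and -0.19 without it. Under each of 4 other scalings all 6 stayed below 0, with a median of -1.23 to -0.89 with BMP4 and of -1.28 to -0.69 without it. Their calls were less stable. Of the 6 Mcm genes, 0 were called with BMP4 and 2 without it after quantile normalization, and 1 with BMP4 and 2 without it after upper quartile rescaling. Without BMP4, the call for Mcm6 was lost without replicate 2 of iPSC alone or replicate 2 of ITS-iPSC (adjusted p 0.0935 to 0.104). That for Mcm3 was lost without either replicate of iPSC alone or replicate 2 of ITS-iPSC (adjusted p 0.0965 to 0.187) and under 4 other settings (adjusted p 0.0503 to 0.0544), that for Mcm2 without any 1 of the 4 libraries (adjusted p 0.0628 to 0.130) and that for Rrm1 without any 1 of the 4 libraries (adjusted p 0.0631 to 0.119) and under 2 other settings (adjusted p 0.0692 to 0.0715). With BMP4, the call for Mcm6 was lost without either replicate of iPSC alone with BMP4 or replicate 1 of ITS-iPSC with BMP4 (adjusted p 0.0932 to 0.144) and under 2 other settings (adjusted p 0.0555 to 0.133), that for Mcm5 without either replicate of iPSC alone with BMP4 or replicate 1 of ITS-iPSC with BMP4 (adjusted p 0.134 to 0.188) and under 4 other settings (adjusted p 0.0511 to 0.163) and that for Rrm1 without either replicate of iPSC alone with BMP4 or replicate 1 of ITS-iPSC with BMP4 (adjusted p 0.0661 to 0.140) and under 4 other settings (adjusted p 0.0515 to 0.133). For Mcm4 it was lost without any 1 of the 4 libraries (adjusted p 0.0569 to 0.186) and under 7 other settings (adjusted p 0.0516 to 0.133), and for Mcm3 without any 1 of the 4 libraries (adjusted p 0.0631 to 0.224) and under 9 other settings (adjusted p 0.0530 to 0.133). For Mcm2 it was lost without any 1 of the 4 libraries (adjusted p 0.0520 to 0.225) and under 6 other settings (adjusted p 0.0511 to 0.134), and for Mcm7 without either replicate of iPSC alone with BMP4 or replicate 1 of ITS-iPSC with BMP4 (adjusted p 0.142 to 0.170) and under 3 other settings (adjusted p 0.0518 to 0.134). The assembled iPSC libraries also had higher FPKM totals, 866759 to 947859 against 752753 to 753791 in iPSC alone, and a lower sum of 10 pluripotency markers, 800.5 to 818 against 1356 to 1395 FPKM. Their part in the result was not tested.

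Set side by side as 4 assembled and 4 lone libraries of iPSC origin, with and without BMP4, 14 of the 44 genes were lower in assembled cells with no overlap (31.8%), where 22.5% of all tested genes were. They were Mcm2 to Mcm7, Rrm1, Rrm2, Cdk2, Ccna2, Cdc20, Aurkb, Plk1 and Kif11. A single gene, Pcna, was higher with no overlap (2.27%, against 7.93% of all). Pcna, the clamp of the polymerases, thus went against the Mcm genes. It had 455 and 436 FPKM in ITS-iPSC with BMP4, 483 and 576 in ITS-iPSC, 334 and 392 in iPSC alone with BMP4 and 298 and 307 in iPSC alone. The change in ITS-iPSC against iPSC alone was 0.80 ± 0.19, limma adjusted p = 0.0197, lost without either replicate of iPSC alone or replicate 2 of ITS-iPSC (adjusted p 0.109 to 0.182) and under 1 other setting (adjusted p = 0.0529). In TSC origin the gene had 347 and 374 FPKM in ITS-TSC with BMP4, 359.7 and 309 in ITS-TSC, 349 and 279 in TSC alone with BMP4 and 196 and 172 in TSC alone. TSC alone was the lowest group, with -0.72 ± 0.19, limma adjusted p = 0.0106 against iPSC alone. ITS-TSC was higher than TSC alone (0.85 ± 0.19, limma adjusted p = 0.00914), as was TSC alone with BMP4 (0.76 ± 0.19, limma adjusted p = 0.0219), and lower than ITS-iPSC (-0.66 ± 0.19, limma adjusted p = 0.0316). The call against iPSC alone was lost without either replicate of iPSC alone or replicate 2 of TSC alone (adjusted p 0.0507 to 0.0646), and that for ITS-TSC against TSC alone without replicate 1 of ITS-TSC (adjusted p = 0.0762) and in the fit of only the 4 libraries compared (adjusted p = 0.104). The call with BMP4 was lost without replicate 2 of TSC alone or replicate 1 of TSC alone with BMP4 (adjusted p 0.0887 to 0.120) and under 3 other settings (adjusted p 0.0842 to 0.270), and that against ITS-iPSC without any 1 of the 4 libraries (adjusted p 0.0658 to 0.216) and under 2 other settings (adjusted p 0.0619 to 0.176).

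**Figure D4:**
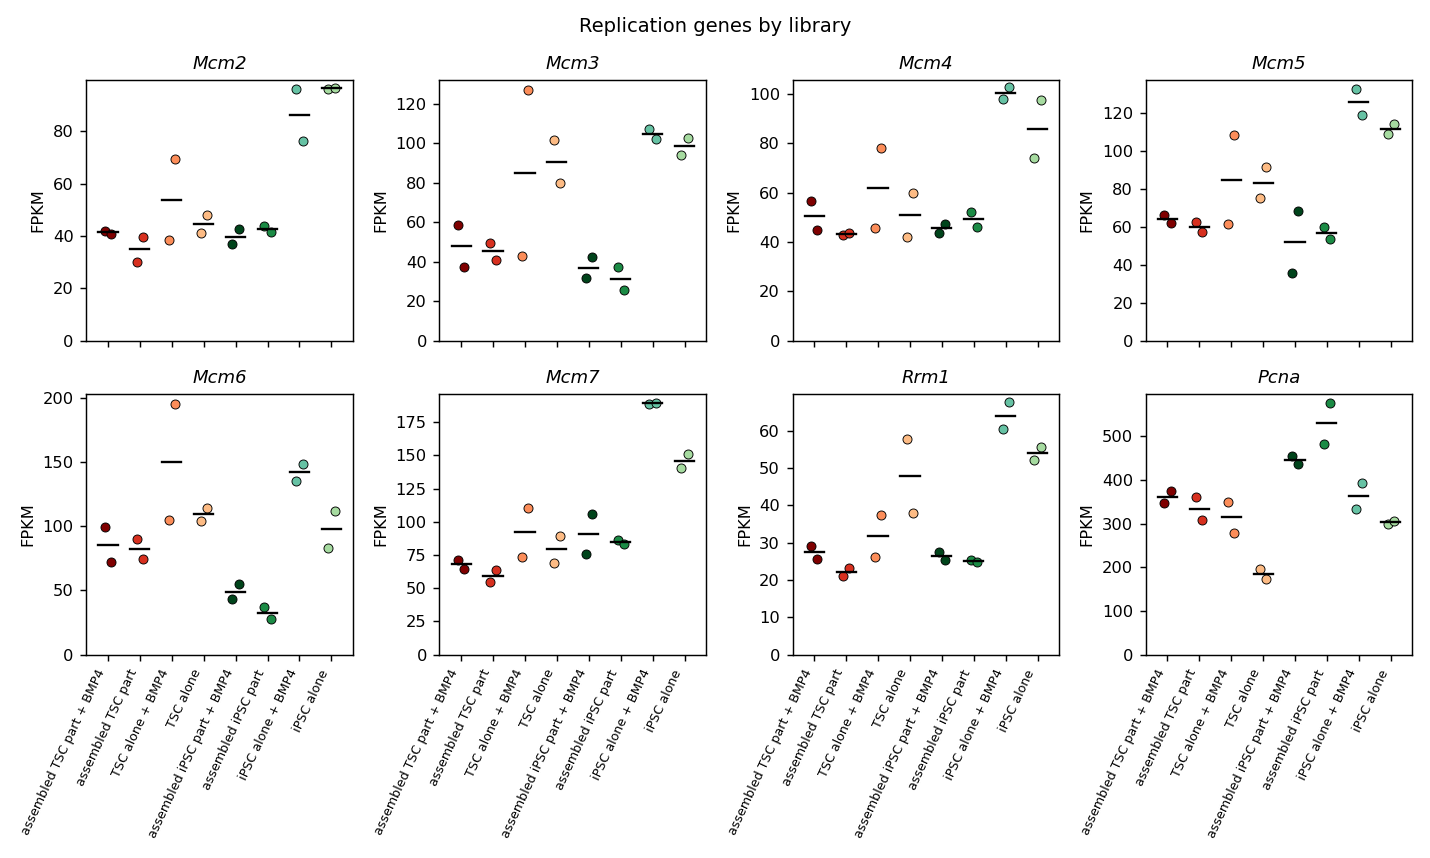
Points are the FPKM of single libraries and bars the mean of the 2 libraries of a group, on linear axes that start at 0, for the 6 Mcm genes, Rrm1 and Pcna. In iPSC origin (right 4 groups) the Mcm genes and Rrm1 are lower in the 4 assembled libraries than in the 4 lone ones, and Pcna is higher.

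In TSC origin the Mcm genes changed in the same direction with assembly but did not separate as fully. Mcm2 had 42.1 and 40.9 FPKM in ITS-TSC with BMP4, 30.2 and 39.7 in ITS-TSC, 38.3 and 69.5 in TSC alone with BMP4 and 41.0 and 47.9 in TSC alone. Mcm6 had 99 and 71.9 FPKM in ITS-TSC with BMP4, 89.8 and 74.4 in ITS-TSC, 105 and 195 in TSC alone with BMP4 and 104 and 114 in TSC alone. Mcm7 had 71.2 and 64.7 FPKM in ITS-TSC with BMP4, 54.7 and 63.7 in ITS-TSC, 73.8 and 110.3 in TSC alone with BMP4 and 68.9 and 89.7 in TSC alone. In TSC alone with BMP4, replicate 2 was above replicate 1 for all 6 Mcm genes. Mcm3 had 58.5 and 37.6 FPKM in ITS-TSC with BMP4, 49.6 and 40.9 in ITS-TSC, 42.8 and 127 in TSC alone with BMP4 and 101 and 79.7 in TSC alone. Mcm4 had 56.5 and 44.7 FPKM in ITS-TSC with BMP4, 43.0 and 43.6 in ITS-TSC, 45.8 and 78.1 in TSC alone with BMP4 and 41.9 and 59.9 in TSC alone. Mcm5 had 66.1 and 61.8 FPKM in ITS-TSC with BMP4, 62.6 and 57.5 in ITS-TSC, 61.2 and 108 in TSC alone with BMP4 and 75.2 and 91.5 in TSC alone. Taken with and without BMP4 together, the 4 libraries of ITS-TSC lay below the 4 of TSC alone for Mcm6, and overlapped with them for the other 5 Mcm genes. In ITS-TSC against TSC alone, 0 of the 6 were called, with 1 at an unadjusted limma p under 0.05. All 6 changes were below 0 there, with a median of -0.41, against 0.03 over all tested genes. With BMP4 on both sides all 6 were also below 0 with 0 called, and the median was -0.38, against -0.07 over all tested genes. Rrm1 had 29.2 and 25.8 FPKM in ITS-TSC with BMP4, 21.1 and 23.2 in ITS-TSC, 26.3 and 37.5 in TSC alone with BMP4 and 57.8 and 38.1 in TSC alone. It was lower in ITS-TSC than in TSC alone (-1.05 ± 0.24, limma adjusted p = 0.00980), a call lost without replicate 1 of TSC alone or replicate 1 of ITS-TSC (adjusted p 0.0618 to 0.0669) and in the fit of only the 4 libraries compared (adjusted p = 0.130). For the replication list as a whole, the effect of assembly in TSC minus that in iPSC had a median of 0.63 over 12 genes, against 0.19 over all genes, with 0 called and 7 at an unadjusted limma p under 0.05. The separation seen in iPSC was therefore not shown to differ from TSC for any of these 12 genes by itself. Of 42 replication genes outside the list, the nucleotide enzyme Dut alone was called for that difference, above 0 (limma adjusted p = 0.0287). That is 2.38% of them, against 4.15% of all tested genes.

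Between the origins, TSC alone was lower than iPSC alone for Mcm2 (-1.10 ± 0.26, limma adjusted p = 0.00572), Mcm7 (-0.88 ± 0.24, limma adjusted p = 0.0111) and Mcm4 (-0.75 ± 0.27, limma adjusted p = 0.0438). The Mcm2 call held under every setting. That of Mcm7 was lost without replicate 2 of iPSC alone or replicate 1 of TSC alone (adjusted p 0.0704 to 0.0760), and that of Mcm4 without either replicate of iPSC alone or replicate 1 of TSC alone (adjusted p 0.0573 to 0.259) and under 5 other settings (adjusted p 0.0546 to 0.117). Between the groups with BMP4, TSC alone was lower for Mcm7 (-1.06 ± 0.24, limma adjusted p = 0.00906) and Rrm1 (-1.0 ± 0.24, limma adjusted p = 0.0123). The Mcm7 call was lost without either replicate of iPSC alone with BMP4 or replicate 1 of TSC alone with BMP4 (adjusted p 0.0553 to 0.0683) and in the fit of only the 4 libraries compared (adjusted p = 0.0766). That of Rrm1 was lost without either replicate of iPSC alone with BMP4 or replicate 1 of TSC alone with BMP4 (adjusted p 0.0561 to 0.0897) and in the fit of only the 4 libraries compared (adjusted p = 0.0783). Mcm6 was higher in ITS-TSC than in ITS-iPSC (1.31 ± 0.30, limma adjusted p = 0.00949), lost without replicate 2 of ITS-iPSC or replicate 1 of ITS-TSC (adjusted p 0.0838 to 0.0922). Of the 12 replication genes of the list, Cdc6, which loads the helicase, was called most often between the origins. It had 49.0 and 48.7 FPKM in ITS-TSC with BMP4, 41.0 and 43.9 in ITS-TSC, 43.1 and 49.6 in TSC alone with BMP4 and 52.4 and 25.8 in TSC alone. In iPSC origin it had 11 and 18.5 FPKM in ITS-iPSC with BMP4, 12.7 and 10.2 in ITS-iPSC, 18.7 and 24.0 in iPSC alone with BMP4 and 16.9 and 26.8 in iPSC alone. All but 1 of the TSC origin libraries were above all of iPSC origin, the exception being replicate 2 of TSC alone. Cdc6 was higher in ITS-TSC than in ITS-iPSC (1.81 ± 0.34, limma adjusted p = 0.00363), and likewise with BMP4 on both sides (1.71 ± 0.34, limma adjusted p = 0.00777). In cells alone with BMP4 it was higher in TSC as well (1.09 ± 0.34, limma adjusted p = 0.0417). The first of these calls held under every setting. The second was lost without replicate 1 of ITS-iPSC with BMP4 or replicate 1 of ITS-TSC with BMP4 (adjusted p 0.0520 to 0.0812) and in the fit of only the 4 libraries compared (adjusted p = 0.124), and the last without any 1 of the 4 libraries (adjusted p 0.0902 to 0.227) and under 4 other settings (adjusted p 0.0515 to 0.0795). Cdc45, Rrm2 and Tyms gave no call in any comparison. Cdc45, which completes the active helicase, ranged over 13.0 to 30.9 FPKM with a median of 20.9. Rrm2, the small subunit of ribonucleotide reductase, ranged over 132 to 367 FPKM with a median of 224. Tyms, the thymidylate synthase, ranged over 99.5 to 179.5 FPKM with a median of 141.

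Promoters of genes that moved together are printed to show which short motifs they hold. RefSeq gave a promoter for 37 of the 46 genes, 41 in all, on GRCm38.p6, and the 250 bases before the start were searched on both strands for letters bound by E2F factors (TTTGGCGC, TTTCGCGC, TTTCCCGC or TTTGCCGC), for the CHR of genes of G2 and mitosis (TTTGAA or TTTAAA) and for CCAAT. Overlapping matches were each counted. The bases just after each start were compared with annotated transcripts of the gene, and 27 of the 41 matched. The starts of the remaining windows were not borne out by that check, and the shares below include them. E2F letters were in 8 of 41 (19.5%), against 1.86% of 32851 promoters of the table, CHR letters in 36.6% against 25.2%, and CCAAT in 68.3% against 33.8%. By phase, E2F letters were in 33.3% of replication promoters, 21.4% of G1 promoters and 6.67% of those of G2 and mitosis, and CHR letters in 25.0% of replication promoters, 21.4% of G1 promoters and 60.0% of those of G2 and mitosis. Mcm6, Mcm5 and Mcm3 are shown as examples of genes lower in ITS-iPSC with BMP4 than in iPSC alone with BMP4. Mcm2, Mcm7 and Rrm1, also called lower there, are not shown. Mcm2 and Rrm1 hold no E2F match, and a single window of Mcm7 does. Cdc20, Plk1 and Bub1 are shown as examples of genes lower in TSC alone than in iPSC alone. Cdc25b, Aurka and Mad2l1, also called lower there, are not shown and hold no CHR match. The window of Mcm6 is chr1:128359706-128359955 on the minus strand, that of Mcm5 chr8:75109259-75109508 on the plus strand and that of Mcm3 chr1:20820313-20820562 on the minus strand. The window of Cdc20 is chr4:118437344-118437593 on the minus strand, that of Plk1 chr7:122159185-122159434 on the plus strand and that of Bub1 chr2:127831860-127832109 on the minus strand. Sequences run 5′ to 3′ towards the gene, and capitals mark E2F and CHR letters.
Mcm6: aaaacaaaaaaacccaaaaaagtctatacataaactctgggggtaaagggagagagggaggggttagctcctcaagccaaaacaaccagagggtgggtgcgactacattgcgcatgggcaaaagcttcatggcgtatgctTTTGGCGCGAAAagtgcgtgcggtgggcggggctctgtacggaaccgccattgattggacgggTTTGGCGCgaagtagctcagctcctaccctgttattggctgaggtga
Mcm5: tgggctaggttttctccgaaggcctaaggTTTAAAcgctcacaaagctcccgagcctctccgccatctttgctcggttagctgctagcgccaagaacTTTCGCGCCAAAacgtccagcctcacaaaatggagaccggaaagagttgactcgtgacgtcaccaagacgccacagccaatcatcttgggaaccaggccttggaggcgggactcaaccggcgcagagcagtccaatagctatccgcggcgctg
Mcm3: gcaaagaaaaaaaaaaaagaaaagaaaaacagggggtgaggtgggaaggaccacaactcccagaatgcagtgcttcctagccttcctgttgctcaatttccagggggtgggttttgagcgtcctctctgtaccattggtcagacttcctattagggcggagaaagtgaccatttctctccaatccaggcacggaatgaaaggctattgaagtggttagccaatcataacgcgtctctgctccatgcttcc
Cdc20: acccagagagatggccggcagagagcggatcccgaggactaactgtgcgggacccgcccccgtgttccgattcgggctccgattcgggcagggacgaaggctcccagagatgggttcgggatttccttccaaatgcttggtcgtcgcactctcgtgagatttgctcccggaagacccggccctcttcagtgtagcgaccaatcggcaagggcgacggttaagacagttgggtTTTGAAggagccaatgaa
Plk1: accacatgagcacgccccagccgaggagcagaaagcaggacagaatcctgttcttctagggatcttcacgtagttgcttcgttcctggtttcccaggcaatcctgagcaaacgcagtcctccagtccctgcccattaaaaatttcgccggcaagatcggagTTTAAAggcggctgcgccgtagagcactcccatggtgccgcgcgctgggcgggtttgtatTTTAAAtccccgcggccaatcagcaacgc
Bub1: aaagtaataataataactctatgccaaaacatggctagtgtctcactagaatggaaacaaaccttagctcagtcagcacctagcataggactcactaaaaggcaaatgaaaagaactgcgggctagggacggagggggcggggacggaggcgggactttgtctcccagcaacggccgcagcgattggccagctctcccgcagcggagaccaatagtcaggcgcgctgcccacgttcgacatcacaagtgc
Mcm6 holds 3 E2F matches, of which 2 overlap on opposite strands. Mcm5 holds 2, which also overlap, and 1 CHR match. Mcm3 holds none of either kind. Plk1 holds 2 CHR matches and Cdc20 holds 1, close to the start at base -18, while Bub1 holds none. A match is a description of these letters and not of binding, and a window without one says nothing of the factor.

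Among the genes of G2 and mitosis, Bub1, a kinase of the spindle checkpoint, was lowest in TSC alone. It had 23.7 and 19.1 FPKM in ITS-TSC with BMP4, 20.5 and 17.3 in ITS-TSC, 24.4 and 20.9 in TSC alone with BMP4 and 9.08 and 7.55 in TSC alone. The iPSC origin libraries had 26.7 and 24.7 FPKM in ITS-iPSC with BMP4, 29.5 and 30.4 in ITS-iPSC, 29.6 and 33.2 in iPSC alone with BMP4 and 36.5 and 35.9 in iPSC alone. All 8 libraries of TSC origin were below all 8 of iPSC origin, and those of TSC alone were lowest of all. The change was -2.00 ± 0.21 in TSC alone against iPSC alone (limma adjusted p = 3.02e-05), a call that held under every setting. It was 1.10 ± 0.21 in ITS-TSC against TSC alone (limma adjusted p = 0.00430), a call lost in the fit of only the 4 libraries compared (adjusted p = 0.118). TSC alone with BMP4 against TSC alone, which shares those libraries, gave 1.34 ± 0.21, limma adjusted p = 0.00200, lost in the fit of only the 4 libraries compared (adjusted p = 0.195). Plk1, the Polo kinase of mitotic entry, had 77.0 and 60.4 FPKM in ITS-TSC with BMP4, 105 and 88.1 in ITS-TSC, 94.4 and 82.2 in TSC alone with BMP4 and 46.4 and 64.3 in TSC alone. Libraries of iPSC origin had 70.2 and 92.0 FPKM in ITS-iPSC with BMP4, 74.0 and 106 in ITS-iPSC, 122 and 116 in iPSC alone with BMP4 and 119.6 and 118 in iPSC alone. TSC alone was lower than iPSC alone (-1.11 ± 0.24, limma adjusted p = 0.00348), under every setting. ITS-TSC was higher than TSC alone (0.81 ± 0.24, limma adjusted p = 0.0353), a call lost without replicate 1 of TSC alone or either replicate of ITS-TSC (adjusted p 0.0732 to 0.187) and under 5 other settings (adjusted p 0.0534 to 0.154). Cdc20, the activator of the complex that ends metaphase, had 212 and 167 FPKM in ITS-TSC with BMP4, 198 and 197 in ITS-TSC, 237 and 277 in TSC alone with BMP4 and 86.2 and 183 in TSC alone. Its levels in iPSC origin were 139 and 222 FPKM in ITS-iPSC with BMP4, 181 and 159 in ITS-iPSC, 354 and 366 in iPSC alone with BMP4 and 423 and 363 in iPSC alone. Its level was highest in the 4 libraries of iPSC cultured alone. The change was -1.63 ± 0.31 in TSC alone against iPSC alone (limma adjusted p = 0.00150), a call lost in the fit of only the 4 libraries compared (adjusted p = 0.0575). It was -1.20 ± 0.31 in ITS-iPSC against iPSC alone (limma adjusted p = 0.0270), a call lost without any 1 of the 4 libraries (adjusted p 0.0789 to 0.182) and under 2 other settings (adjusted p 0.0553 to 0.0597). The effect of assembly in TSC minus that in iPSC was 1.22 ± 0.31, limma adjusted p = 0.0477. That call was lost under 4 other settings and on leaving out any of 14 of the 16 libraries.

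Aurka, the Aurora kinase of the spindle poles, had 94.5 and 119.7 FPKM in ITS-TSC with BMP4, 156 and 124 in ITS-TSC, 168 and 90.4 in TSC alone with BMP4 and 49.2 and 81.8 in TSC alone. Cells of iPSC origin had 81.6 and 113 FPKM in ITS-iPSC with BMP4, 92.0 and 136 in ITS-iPSC, 130.1 and 142 in iPSC alone with BMP4 and 131 and 114 in iPSC alone. TSC alone was lower than iPSC alone (-0.93 ± 0.33, limma adjusted p = 0.0406), a call lost without either replicate of iPSC alone or replicate 1 of TSC alone (adjusted p 0.100 to 0.263) and under 2 other settings (adjusted p 0.0780 to 0.0932). ITS-TSC was higher than TSC alone (1.11 ± 0.33, limma adjusted p = 0.0324), a call lost without replicate 1 of TSC alone or either replicate of ITS-TSC (adjusted p 0.0716 to 0.192) and under 4 other settings (adjusted p 0.0636 to 0.142). Cdc25b, a phosphatase that starts mitosis, had 3.05 and 3.79 FPKM in ITS-TSC with BMP4, 3.14 and 6.64 in ITS-TSC, 2.89 and 2.64 in TSC alone with BMP4 and 0.861 and 2.43 in TSC alone. For iPSC origin the values were 1.83 and 5.16 FPKM in ITS-iPSC with BMP4, 3.41 and 5.01 in ITS-iPSC, 3.87 and 4.0 in iPSC alone with BMP4 and 6.26 and 5.31 in iPSC alone. The call was TSC alone below iPSC alone (-1.42 ± 0.42, limma adjusted p = 0.0177), lost without either replicate of iPSC alone or replicate 1 of TSC alone (adjusted p 0.0609 to 0.135) and in the fit of only the 4 libraries compared (adjusted p = 0.0763). Its relative Cdc25c had 13.1 and 15.5 FPKM in ITS-TSC with BMP4, 27.1 and 23.3 in ITS-TSC, 21.2 and 22.9 in TSC alone with BMP4 and 11.4 and 15.1 in TSC alone. The cells of iPSC origin had 11.1 and 17.8 FPKM in ITS-iPSC with BMP4, 15.2 and 19.9 in ITS-iPSC, 13.6 and 16.9 in iPSC alone with BMP4 and 22.1 and 18.7 in iPSC alone. Its call was ITS-TSC above TSC alone (0.89 ± 0.27, limma adjusted p = 0.0351), lost without replicate 1 of TSC alone or either replicate of ITS-TSC (adjusted p 0.0815 to 0.169) and under 4 other settings (adjusted p 0.0590 to 0.149). Foxm1, a factor that switches on mitotic genes, had 4.36 and 4.97 FPKM in ITS-TSC with BMP4, 4.10 and 7.70 in ITS-TSC, 3.40 and 2.98 in TSC alone with BMP4 and 2.98 and 1.20 in TSC alone. In iPSC origin it had 7.24 and 5.36 FPKM in ITS-iPSC with BMP4, 5.92 and 5.79 in ITS-iPSC, 6.33 and 5.75 in iPSC alone with BMP4 and 4.55 and 4.19 in iPSC alone. ITS-TSC was above TSC alone (1.17 ± 0.33, limma adjusted p = 0.0273), a call lost without replicate 2 of TSC alone or replicate 2 of ITS-TSC (adjusted p 0.172 to 0.195) and under 4 other settings (adjusted p 0.0562 to 0.248). All 4 of these genes had their lowest group mean in TSC alone. In ITS-TSC against TSC alone the 19 genes of G2 and mitosis had a median change of 0.65, against 0.03 over all genes. By limma 5 were higher and 0 lower, with 7 at an unadjusted p under 0.05. That is 26.3% of these genes called, against 19.2% of all tested genes, 9.01% higher and 10.2% lower.

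**Figure D5:**
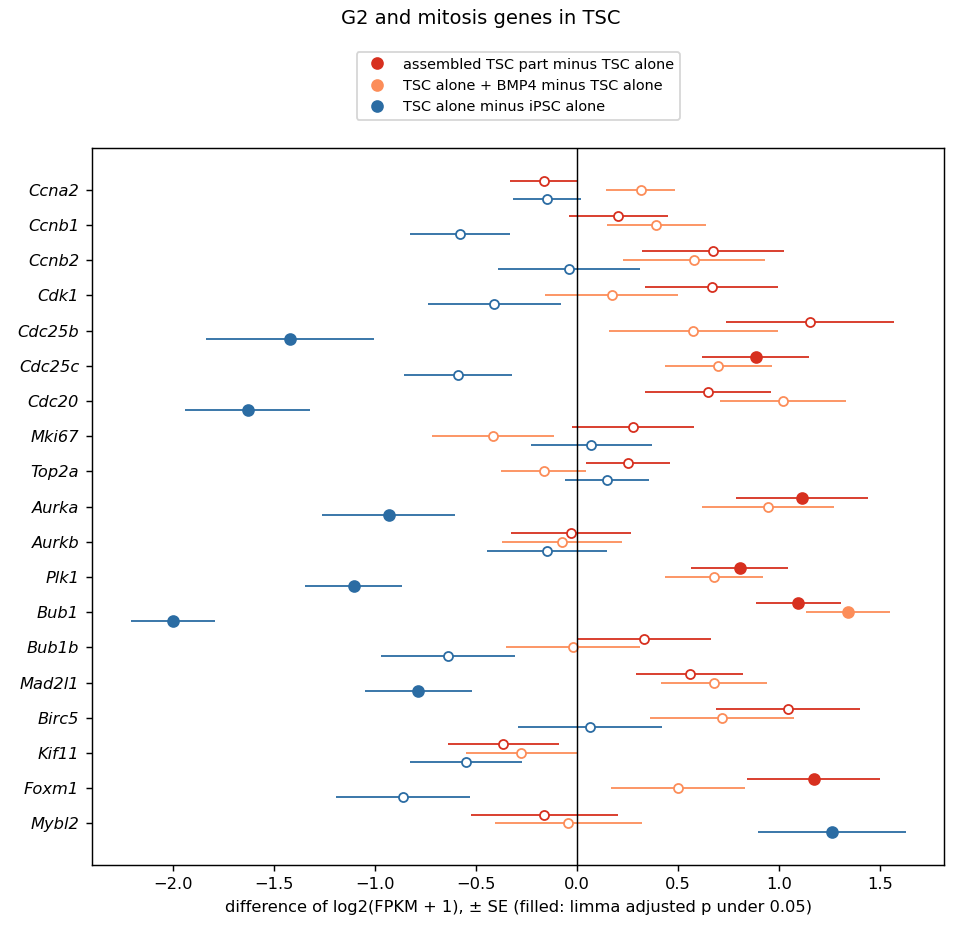
Points are differences of log2(FPKM + 1) and lines their SE from limma, for 19 genes of G2 and mitosis in 3 comparisons that share the 2 libraries of TSC alone, filled where the adjusted p is under 0.05. Bub1 lies furthest left in TSC alone minus iPSC alone and right of 0 in the other pair of comparisons, while Mybl2 is the gene called to the right in TSC alone minus iPSC alone.

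Mybl2, the other factor that switches on genes of G2, was called in a pair of comparisons of origin. It had 16.5 and 25.0 FPKM in ITS-TSC with BMP4, 24.5 and 29.1 in ITS-TSC, 30.6 and 27.6 in TSC alone with BMP4 and 35.3 and 25.5 in TSC alone. Libraries of iPSC origin had 6.54 and 13.0 FPKM in ITS-iPSC with BMP4, 9.19 and 5.13 in ITS-iPSC, 13.4 and 15.1 in iPSC alone with BMP4 and 9.01 and 15.7 in iPSC alone. All 8 libraries of TSC origin were above all 8 of iPSC origin. The change was 1.26 ± 0.37 in TSC alone against iPSC alone (limma adjusted p = 0.0166), a call lost without replicate 1 of iPSC alone or replicate 1 of TSC alone (adjusted p 0.0977 to 0.155) and in the fit of only the 4 libraries compared (adjusted p = 0.0728). It was 1.81 ± 0.37 in ITS-TSC against ITS-iPSC (limma adjusted p = 0.00540), a call lost without replicate 2 of ITS-iPSC (adjusted p = 0.0656). Over the 44 genes, Ccnd2, Cdk4 and Bub1 were lower in the 8 libraries of TSC origin with no overlap (6.82%, against 5.17% of all genes), and Mybl2 alone was higher (2.27%, against 4.17%). Ccna2, the cyclin of S phase and G2, had 101 and 88.6 FPKM in ITS-TSC with BMP4, 104 and 95.7 in ITS-TSC, 135 and 144 in TSC alone with BMP4 and 116 and 108 in TSC alone. Its levels in iPSC origin were 80.7 and 89.4 FPKM in ITS-iPSC with BMP4, 67.0 and 66.5 in ITS-iPSC, 152 and 153 in iPSC alone with BMP4 and 122 and 126 in iPSC alone. The 2 libraries of ITS-iPSC were the lowest of the 16. The change was -0.88 ± 0.17 in ITS-iPSC against iPSC alone (limma adjusted p = 0.00866), a call lost without either replicate of iPSC alone or replicate 2 of ITS-iPSC (adjusted p 0.0597 to 0.0893) and under 1 other setting (adjusted p = 0.0616). With BMP4 on both sides it was -0.84 ± 0.17, limma adjusted p = 0.0224, lost without either replicate of iPSC alone with BMP4 or replicate 1 of ITS-iPSC with BMP4 (adjusted p 0.0954 to 0.170) and under 4 other settings (adjusted p 0.0869 to 0.138). ITS-TSC was higher than ITS-iPSC (0.57 ± 0.17, limma adjusted p = 0.0349), a call lost without any 1 of the 4 libraries (adjusted p 0.0789 to 0.173) and under 6 other settings (adjusted p 0.0516 to 0.240). Kif11, the motor that separates the spindle poles, had 11.5 and 11.1 FPKM in ITS-TSC with BMP4, 13.3 and 12.5 in ITS-TSC, 12.5 and 15.2 in TSC alone with BMP4 and 12.6 and 22.6 in TSC alone. Cells of iPSC origin had 12.8 and 14.9 FPKM in ITS-iPSC with BMP4, 11.4 and 15.9 in ITS-iPSC, 31.1 and 31.9 in iPSC alone with BMP4 and 22.6 and 28.1 in iPSC alone. Where both groups had BMP4, ITS-iPSC was lower than iPSC alone (-1.13 ± 0.28, limma adjusted p = 0.0363), a call lost without any 1 of the 4 libraries (adjusted p 0.0537 to 0.195) and under 5 other settings (adjusted p 0.0616 to 0.133). TSC alone with BMP4 was also lower than the same libraries of iPSC alone with BMP4 (-1.14 ± 0.28, limma adjusted p = 0.0138), a call lost without either replicate of iPSC alone with BMP4 or replicate 1 of TSC alone with BMP4 (adjusted p 0.0763 to 0.0790).

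Mki67 and Cdk1, often read as measures of proliferation, gave no call in any of the 16 comparisons, and neither did Top2a, Aurkb, Ccnb1, Ccnb2, Bub1b and Birc5. Mki67, the nuclear antigen of cycling cells, had 10.5 and 10.5 FPKM in ITS-TSC with BMP4, 9.30 and 12.6 in ITS-TSC, 5.35 and 7.41 in TSC alone with BMP4 and 11.7 and 6.48 in TSC alone. For iPSC origin the values were 10.3 and 8.68 FPKM in ITS-iPSC with BMP4, 9.97 and 7.5 in ITS-iPSC, 5.16 and 6.82 in iPSC alone with BMP4 and 7.92 and 8.66 in iPSC alone. Cdk1, the mitotic kinase, had 279.6 and 315 FPKM in ITS-TSC with BMP4, 417 and 359 in ITS-TSC, 429.7 and 175 in TSC alone with BMP4 and 244 and 242 in TSC alone. The cells of iPSC origin had 325 and 339.6 FPKM in ITS-iPSC with BMP4, 323 and 494 in ITS-iPSC, 301 and 350.5 in iPSC alone with BMP4 and 324 and 323 in iPSC alone. TSC alone was the lowest group mean for Cdk1 but not for Mki67, and libraries overlapped between origins for both. The change in TSC alone against iPSC alone was 0.07 ± 0.30, limma adjusted p = 0.882 for Mki67 and -0.41 ± 0.33, limma adjusted p = 0.353 for Cdk1. Top2a, the topoisomerase of chromosome condensation, ranged over 65.2 to 115 FPKM with a median of 84.7, and Aurkb, the Aurora kinase of the centromere, over 27.2 to 79.7 FPKM with a median of 67.0. The B-type cyclin Ccnb1 ranged over 177 to 333 FPKM with a median of 238, and Ccnb2 over 89.0 to 259.6 FPKM with a median of 174. Bub1b, a checkpoint relative of Bub1, ranged over 15.7 to 36.1 FPKM with a median of 27.1, and Birc5, of the same centromere complex as Aurkb, over 306 to 933 FPKM with a median of 451. Mad2l1, another checkpoint gene, ranged over 58.5 to 203 FPKM with a median of 122 and was called once, lower in TSC alone than in iPSC alone (-0.79 ± 0.26, limma adjusted p = 0.0338). The call was lost without either replicate of iPSC alone or replicate 1 of TSC alone (adjusted p 0.0756 to 0.183) and under 3 other settings (adjusted p 0.0526 to 0.0758). Its lowest pair of libraries, 58.5 and 78.8 FPKM, were those of TSC alone.

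Set against the other 6 libraries of TSC origin, TSC alone had 9 of the 44 genes lower with no overlap (20.5%, against 15.5% of all tested genes) and 3 higher (6.82%, against 14.4%). The lower ones were Ccnd1, Cdk6, Pcna, Rrm2, Cdc25b, Aurka, Bub1, Mad2l1 and Foxm1, and the higher ones E2f1, Rrm1 and Tyms. For assembly in TSC origin, 4 libraries against 4, Cdc25b and Foxm1 were higher with no overlap (4.55%, against 3.14% of all) and Ccne2, Mcm6 and Ccna2 lower (6.82%, against 6.92%).

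Further genes of the same pathways were counted from lists with 42 replication genes, 40 mitosis genes, 11 E2F and RB family genes and 5 CDK inhibitors that were tested. In TSC alone against iPSC alone, 1 replication gene was higher, Orc2 of the origin recognition complex (0.89 ± 0.23, limma adjusted p = 0.00996), and 11 were lower, 28.6% of the list against 36.4% of all tested genes. Among the lower ones was the nucleotide enzyme Dut (-1.81 ± 0.22, limma adjusted p = 7.67e-05). Of the mitosis genes, 4 were higher, led by the securin Pttg1 (1.72 ± 0.29, limma adjusted p = 0.000735), and 13 lower, led by the checkpoint kinase Ttk (-2.00 ± 0.31, limma adjusted p = 0.000362) and by Ect2 (-1.59 ± 0.26, limma adjusted p = 0.000613), which drives cytokinesis. That is 42.5% of the mitosis list. The median was -0.41 for the replication genes and -0.41 for the mitosis genes, against -0.11 over all genes. The Orc2 call was lost without replicate 1 of iPSC alone or replicate 1 of TSC alone (adjusted p 0.0547 to 0.0982) and in the fit of only the 4 libraries compared (adjusted p = 0.0612). Orc2 was also higher in TSC origin in the other 3 comparisons of origin, as was Pttg1. ITS-iPSC against iPSC alone had 0 replication genes higher and 7 lower, 16.7% of the list against 11.8% of all tested genes, led by Chaf1a, a histone chaperone of replication (-2.70 ± 0.36, limma adjusted p = 0.00434), and by the flap nuclease Fen1 (-1.66 ± 0.30, limma adjusted p = 0.00753). The Chaf1a call was lost without replicate 2 of ITS-iPSC (adjusted p = 0.0586), and that of Fen1 without either replicate of iPSC alone or replicate 2 of ITS-iPSC (adjusted p 0.0528 to 0.0915). In the same comparison 2 mitosis genes were higher, Pttg1 (1.40 ± 0.29, limma adjusted p = 0.0123) and Cks2 (0.79 ± 0.24, limma adjusted p = 0.0497), and 14 lower, led by the spindle factor Tpx2 (-1.36 ± 0.25, limma adjusted p = 0.00715), 40% of the list, with a median of -0.44 against -0.19 over all genes. The Pttg1 call was lost without replicate 1 of iPSC alone or either replicate of ITS-iPSC (adjusted p 0.0711 to 0.110) and in the fit of only the 4 libraries compared (adjusted p = 0.0609), that of Cks2 without any 1 of the 4 libraries (adjusted p 0.101 to 0.282) and under 6 other settings (adjusted p 0.0529 to 0.148) and that of Tpx2 without replicate 2 of iPSC alone or replicate 2 of ITS-iPSC (adjusted p 0.0754 to 0.0801). Between the groups with BMP4, 6 replication genes were lower and 0 higher, 14.3% of the list, and 11 mitosis genes lower and 1 higher, 30%, against 5.72% of all tested genes. In ITS-TSC against TSC alone, 6 replication genes were higher, with Dut at 1.26 ± 0.22 (limma adjusted p = 0.00256), and 3 lower, with Chaf1a at -1.49 ± 0.36 (limma adjusted p = 0.0141). The called share was 21.4% of the replication list and 32.5% of the mitosis list, against 19.2% of all tested genes. The medians were 0.07 for replication and 0.13 for mitosis, against 0.03 over all tested genes. Of the mitosis genes 9 were higher, with Cks1b, a small partner of CDKs, at 1.86 ± 0.28 (limma adjusted p = 0.00109) and Ect2 at 1.61 ± 0.26 (limma adjusted p = 0.00186), and 4 lower. The Dut call was lost in the fit of only the 4 libraries compared (adjusted p = 0.0812), and that of Chaf1a without replicate 1 of TSC alone or either replicate of ITS-TSC (adjusted p 0.0630 to 0.0876) and under 2 other settings (adjusted p 0.0780 to 0.126). That of Cks1b was lost in the fit of only the 4 libraries compared (adjusted p = 0.0838), and that of Ect2 in the fit of only the 4 libraries compared (adjusted p = 0.0772). TSC alone with BMP4 against TSC alone, which shares those controls, had 5 replication genes higher and 0 lower, and 7 mitosis genes higher and 1 lower, the inhibitory kinase Wee1 (-1.69 ± 0.30, limma adjusted p = 0.00441), lost under 2 other settings (adjusted p 0.0503 to 0.193). These are 11.9% of the replication list and 20% of the mitosis list, against 12.1% of all tested genes. Gmnn, which blocks helicase loading after S phase, had 160.2 and 241 FPKM in ITS-TSC with BMP4, 293 and 204 in ITS-TSC, 263 and 185 in TSC alone with BMP4 and 233 and 246 in TSC alone. In iPSC origin it had 158 and 205 FPKM in ITS-iPSC with BMP4, 167 and 168 in ITS-iPSC, 167 and 220.1 in iPSC alone with BMP4 and 143 and 154 in iPSC alone. It had no call in any comparison.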

How the data were processed

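The values are FPKM per gene symbol, computed by the authors and deposited as 1 table of 31663 symbols and 16 libraries. CASAVA, TopHat2, mm9 and hg19 are named, without versions or roles, per the submitters' processing notes, and the program that made the FPKM is not given in the sources used here. Fragment counts are not given, so depth is unknown and no counting interval can be stated. Values were used as log2(FPKM + 1), and a fold change on that scale understates the change of low genes. The 13406 genes that reached 1 FPKM in 2 or more libraries were fitted in limma 3.58.1 (R 4.3.3) with 8 group means, a mean-variance trend and 8 residual degrees of freedom, and p-values of each of 16 comparisons were adjusted by Benjamini-Hochberg over all 13406. Groups came from the sample titles. The code was tested on simulated data. The settings varied were the pseudocount (0.1), the filter (none), the scaling (quantile normalization, upper quartile, or rescaling to an equal FPKM total without predicted gene names whose symbols are Gm with digits or end in Rik), library quality weights, a replicate block, only the groups compared, a change of at least 2-fold, leaving out the pair of libraries with genes of the other lineage, and each library in turn. A correction for transcript length and GC content was added after seeing the data. "Other settings" in the text are these, except the 2-fold threshold. Members named are up to 5 called genes per phase, direction and comparison by size of change, a fixed set of 12 genes, and up to 3 called genes per other pathway list, of which 1 is not reported here. The remaining called members, among them Mcm2 and Mcm7 with BMP4 and Mad2l1, and the no-overlap genes were named after their values were seen. The 46 genes, the other lists and the markers were chosen with earlier results of these data known. Promoters came from RefSeq (GRCm38.p6) by symbol. Tables and plots were made in Python 3.11.15 with numpy 2.4.6, pandas 2.3.3 and matplotlib 3.10.9.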

Additional observations from a re-analysis of the deposited data

Results flagged for a closer look

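The effect of assembly differed between the origins for 2 genes of the list by the limma test of that difference, averaged over cultures with and without BMP4. That is 4.55% of the list, close to the 4.15% of all tested genes. For Ccnd1 the effect in TSC minus that in iPSC was 2.65 on the log2(FPKM + 1) scale (limma adjusted p = 0.0212), with changes of 3.23 ± 0.53 in ITS-TSC against TSC alone and -0.96 ± 0.53 in ITS-iPSC against iPSC alone. With BMP4 on both sides the same changes were 0.15 ± 0.53 in TSC and -0.96 ± 0.53 in iPSC. The adjusted p was 0.0507 to 0.0637 without replicate 1 of iPSC alone, replicate 2 of ITS-iPSC, replicate 1 of iPSC alone with BMP4 or replicate 1 of ITS-TSC with BMP4. For Cdc20 the difference was 1.22 (limma adjusted p = 0.0477), with 0.65 ± 0.31 in TSC and -1.20 ± 0.31 in iPSC, and with BMP4 on both sides -0.45 ± 0.31 in TSC and -1.03 ± 0.31 in iPSC. Its adjusted p was 0.0510 to 0.112 on leaving out any of 14 of the 16 libraries, and 0.0545 to 0.0840 under 4 other settings.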

How the results depend on the processing

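Counts are of the 44 tested genes called by limma. With only the groups compared in the fit, TSC alone against iPSC alone gave 10 calls in place of 17, the same pair with BMP4 2 in place of 7, the assembled parts with BMP4 0 in place of 3, ITS-TSC against TSC alone 0 in place of 8, ITS-iPSC against iPSC alone with BMP4 0 in place of 9, and TSC alone with BMP4 against TSC alone 0 in place of 3. Such a fit has 2 residual degrees of freedom by construction. It has no value of its own for the mean BMP4 effect and the assembly difference, which use all groups. At a change of at least 2-fold, TSC alone against iPSC alone gave 11 and ITS-TSC against TSC alone 5. Without the pair of libraries with genes of the other lineage, the assembled parts with BMP4 gave 8, ITS-TSC against TSC alone 4, the assembly difference 4 in place of 2, and the BMP4 difference in TSC 1 in place of 0. ITS-iPSC against iPSC alone, 7 calls, gave 4 after quantile normalization, 3 after upper quartile rescaling, 13 after rescaling without predicted gene names and 14 with library quality weights. Those weights gave 4 for ITS-TSC against TSC alone. ITS-iPSC against iPSC alone with BMP4 gave 5 without the filter, 0 after quantile normalization, 1 after upper quartile rescaling and 5 after the length and GC correction. The assembly difference gave 1 with a pseudocount of 0.1 or upper quartile rescaling, and the BMP4 difference in TSC gave 1 with that pseudocount or without the filter. The cause of these shifts was not tested.

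Leaving out 1 library at a time gave 8 to 18 calls for TSC alone against iPSC alone, 4 to 6 for ITS-TSC against ITS-iPSC, 1 to 8 for the lone pair with BMP4, 1 to 8 for the assembled pair with BMP4, 0 to 4 for ITS-iPSC against iPSC alone, 0 to 8 for the same with BMP4, 3 to 12 for ITS-TSC against TSC alone, 2 to 7 for TSC alone with BMP4 against TSC alone, 0 to 1 for BMP4 in ITS-TSC, for the mean BMP4 effect and for the BMP4 difference in TSC, and 0 to 5 for the assembly difference. The libraries are named beside the counts in the results. The lone library of a group is then assumed to vary like the other groups.

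The replicate numbers did not pair the libraries. Same-numbered libraries had deviations from their group means that correlated at -0.185 to 0.1185, over 0.1 in 2 of 28 pairs of groups. A fit with the replicate number as a block gave 1 call for the assembly difference in place of 2. The block moved no other count by over 1.5 times.

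The 161 single changes followed here were all chosen as calls of the main fit. None changed sign under any setting, which that choice and the shared libraries make likely beforehand. The number no longer called was 98 with only the groups compared, 33 without the filter, 30 after upper quartile rescaling, 25 after quantile normalization, 8 with the replicate block and 5 with a pseudocount of 0.1. With 2 libraries a group, unknown depth and no stated separate cultures, small changes of low genes such as Rb1 and E2f1 were not detectable with certainty, and a gene without a call is not shown to be equal between groups.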

Other observations

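Of 11 tested genes of the E2F and RB family outside the list, 0 were higher and 3 lower (Tfdp2, E2f4, E2f5) in TSC alone against iPSC alone, 27.3% against 36.4% of all tested genes, with a median of -0.17 against -0.11 over all tested genes. E2f4, which acts with the RB family to keep cycle genes off in resting cells, had 39.2 and 31.4 FPKM in ITS-TSC with BMP4, 23.3 and 35.2 in ITS-TSC, 21.2 and 26.8 in TSC alone with BMP4 and 18.4 and 17.2 in TSC alone. Libraries of iPSC origin had 24.2 and 39.2 FPKM in ITS-iPSC with BMP4, 43.3 and 43.5 in ITS-iPSC, 47.4 and 43.7 in iPSC alone with BMP4 and 39.3 and 48.1 in iPSC alone. Its change in TSC alone against iPSC alone was -1.24 ± 0.27, limma adjusted p = 0.00326. Ncaph, a condensin subunit that packs mitotic chromosomes, had 17.3 and 15.0 FPKM in ITS-TSC with BMP4, 17.4 and 17.7 in ITS-TSC, 18.5 and 22.6 in TSC alone with BMP4 and 12.0 and 13.2 in TSC alone. Its iPSC origin levels were 15.2 and 13.4 FPKM in ITS-iPSC with BMP4, 12.7 and 10.4 in ITS-iPSC, 30.2 and 34.6 in iPSC alone with BMP4 and 27.0 and 29.9 in iPSC alone. The effect of assembly in TSC minus that in iPSC was 1.24 ± 0.21, limma adjusted p = 0.0122, and leaving out any single library kept that call.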
